A study of Mus musculus with 10 samples.

Results

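Immediate early genes are genes that cells transcribe within minutes of a stimulus, before any new protein is needed. The set described here held 10 of them: Fos, Fosb, Jun, Junb, Egr1, Egr3, Atf3, Nr4a1, Ier2 and Dusp1. Members were taken by gene symbol, and all 10 were found among the 23303 gene entries of the deposited table, each in an entry of its own. Expression was measured by RNA sequencing of the left ventricle, the main pumping chamber of the heart, in male mice of the 129X1/SvJ strain. By the surgery label, 5 mice were CKD (chronic kidney disease) and 5 were Sham, 1 library a mouse; the design text calls the second group normal mice. The type of operation, the age of the mice, the hour of collection and the time to preservation are not given in the sources used here. The series is about uremic cardiomyopathy, the heart disease of kidney failure, and CKD against Sham is the comparison its groups allow. Values are FPKM, a measure of abundance scaled to transcript length and library size, and the mouse numbers serve as names and pair no animals.

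Growth factors, stretch, hormones that act through cyclic AMP, and stress signals switch these genes on through MAP kinases, the serum response factor SRF and the cyclic AMP response element binding protein CREB. Their mRNAs decay within a short time, so the level in a tissue sample reflects the signals shortly before it was preserved. Fos, Fosb, Jun and Junb encode subunits of the AP-1 transcription factor, Atf3 a related stress-induced repressor, Egr1 and Egr3 zinc finger transcription factors, and Nr4a1 an orphan nuclear receptor. Ier2 encodes a nuclear protein of less well defined function, and Dusp1 a phosphatase that turns MAP kinases off again. In the heart, pressure overload and adrenergic stimulation are known to induce several of them.

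In these ventricles none of the 10 genes passed the test between CKD and Sham, while their levels differed widely between mice of the same group. The highest level of each member was in Sham mouse 2 or 3, and Sham mouse 5 had the lowest level of every member. Fosb was at 82.5 FPKM in Sham 2 and at 2.50 FPKM in Sham 5, a 32.9-fold range within the control group. The 5 CKD values of each member lay inside the range of the 5 Sham values, for 10 of 10 members.

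Promoters are shown for 4 of the members that differ in spread. RefSeq promoter sequences (build GRCm38.p6, from 250 bases before to 50 bases after a transcript start) were matched for 7 members, namely Fos, Fosb, Jun, Junb, Atf3, Nr4a1 and Dusp1. Capitals mark the core of the cyclic AMP response element (CRE), which CREB recognises: TGACG, or its complement read on the other strand. The sequences run 5′ to 3′ on the gene's strand, at chr12:85473640-85473939 (plus strand) for Fos, chr7:19309996-19310295 (minus) for Fosb, chr15:101266596-101266895 (plus) for Nr4a1 and chr17:26508423-26508722 (minus) for Dusp1.
Fos: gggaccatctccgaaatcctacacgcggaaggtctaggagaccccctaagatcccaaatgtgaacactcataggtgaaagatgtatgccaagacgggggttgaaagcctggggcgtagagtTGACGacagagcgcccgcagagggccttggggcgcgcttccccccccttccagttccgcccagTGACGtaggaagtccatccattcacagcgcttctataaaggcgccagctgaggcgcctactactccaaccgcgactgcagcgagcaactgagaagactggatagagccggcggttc
Fosb: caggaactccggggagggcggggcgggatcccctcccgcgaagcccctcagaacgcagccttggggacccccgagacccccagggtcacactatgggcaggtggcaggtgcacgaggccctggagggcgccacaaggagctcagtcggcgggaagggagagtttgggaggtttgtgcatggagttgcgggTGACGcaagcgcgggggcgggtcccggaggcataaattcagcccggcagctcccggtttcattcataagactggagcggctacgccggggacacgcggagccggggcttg
Nr4a1: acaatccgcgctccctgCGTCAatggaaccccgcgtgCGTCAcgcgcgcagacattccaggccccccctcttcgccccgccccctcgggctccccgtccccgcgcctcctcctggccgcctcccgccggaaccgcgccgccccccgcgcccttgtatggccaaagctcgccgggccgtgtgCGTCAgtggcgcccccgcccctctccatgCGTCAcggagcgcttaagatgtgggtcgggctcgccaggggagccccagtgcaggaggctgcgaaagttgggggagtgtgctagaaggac
Dusp1: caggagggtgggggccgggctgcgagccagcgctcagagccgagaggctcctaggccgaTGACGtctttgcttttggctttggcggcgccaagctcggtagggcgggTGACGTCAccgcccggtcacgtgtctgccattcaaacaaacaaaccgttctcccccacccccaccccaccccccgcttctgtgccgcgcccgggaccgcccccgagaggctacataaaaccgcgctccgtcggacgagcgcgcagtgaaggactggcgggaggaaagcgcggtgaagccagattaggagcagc

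The CRE core was present in 6 of the 7 promoters, those of Fos, Fosb, Junb, Atf3, Nr4a1 and Dusp1, and in 20.8% of all 32851 promoters of the same length. The core contains CG, and the 7 windows had 58.7% to 72.3% G and C against a median of 52.7% over all promoters, so the shares are not matched for base composition. Jun, whose promoter is not shown, had no core. Nr4a1 held 4 copies and Fos 2, and Dusp1 held copies at bases -191 to -187, -143 to -139 and -140 to -136. The full CRE, TGACGTCA, contains the core on both strands and was found in the Dusp1 promoter alone, at bases -143 to -136 from the start, against 1.79% of all promoters. The EGR site GCGGGGGCG was found in Fosb and Nr4a1, and in 2.91% of all promoters. The AP-1 site TGANTCA (7.81% of all promoters) and the CArG box that SRF binds (1.63%) had no match in the 7 windows. Both strands were searched. These are matches of letters in a short window, and no binding was measured. Whether any motif bears on the members' shared pattern between mice was not tested.

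The members' own positions in GRCm38.p6, from the RefSeq gene table, are as follows. Fos lies on chromosome 12 from 85473890 to 85477274, Fosb on chromosome 7 from 19302696 to 19310118, Jun on chromosome 4 from 95049036 to 95052222, and Junb on chromosome 8 from 84976909 to 84978748. Ier2 is on the same chromosome as Junb, from 84661331 to 84662852. Atf3 lies on chromosome 1 from 191170296 to 191183333, Egr3 on chromosome 14 from 70077317 to 70082613, Nr4a1 on chromosome 15 from 101253902 to 101274795, and Dusp1 on chromosome 17 from 26505591 to 26508472. Egr1 lies on chromosome 18 from 34861207 to 34864956. No other gene in that table overlaps any of them.

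Fos, the best known subunit of AP-1, was at 102, 149, 71.7, 166 and 88.4 FPKM in CKD mice 1 to 5. In Sham mice 1 to 5 it was at 100.5, 265, 267, 121 and 36.3 FPKM. Sham 2 and Sham 3 stood above every CKD mouse and Sham 5 below every CKD mouse, while Sham 1 and Sham 4 lay among them. The mean was 115 ± 40.4 FPKM over CKD mice and 158 ± 103 over Sham mice (SD, n = 5 in both), with a difference of -0.19 on the log2(FPKM + 0.5) scale (SE 0.47, 95% interval -1.23 to 0.84, limma adjusted p = 0.880).

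Fosb, the FOS relative with the widest spread of the set, was at 19.6, 32.0, 16.6, 35.7 and 14.6 FPKM in CKD mice 1 to 5 and at 23.5, 82.5, 80.0, 21.7 and 2.50 FPKM in Sham mice 1 to 5. The CKD values spanned 2.45-fold and the Sham values 32.9-fold. The groups overlapped, and the difference of the log2 means was -0.16 (SE 0.75, 95% interval -1.79 to 1.47, limma adjusted p = 0.945).

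Jun, the partner that pairs with FOS proteins in AP-1, was at 82.9, 84.0, 75.7, 106 and 59.5 FPKM in CKD mice 1 to 5. In Sham mice 1 to 5 it was at 91.5, 155, 144, 69.2 and 48.5 FPKM. The Sham values spanned 3.21-fold, less than those of Fosb, with the same 2 mice highest and the same mouse lowest. The difference of the log2 means was -0.21 (SE 0.28, limma adjusted p = 0.754), the smallest adjusted p of the set.

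Junb, a JUN relative that is the weaker activator, was at 90.3, 94.0, 77.8, 110.2 and 79.3 FPKM in CKD mice 1 to 5 and at 83.3, 214, 152, 82.7 and 48.8 FPKM in Sham mice 1 to 5. CKD mice were closer to each other here than for any other member, with a 1.42-fold span. Sham 2 stood well above Sham 3, and Sham 1 and Sham 4 lay among the CKD mice.

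Atf3, a stress-induced member of the same leucine zipper superfamily, was at 19.4, 44.6, 33.8, 26.9 and 18.4 FPKM in CKD mice 1 to 5. It was at 24.5, 96.8, 110.2, 21.3 and 3.94 FPKM in Sham mice 1 to 5, a 28.0-fold span. Together with Fosb it gave the widest interval for the group difference (log2 -0.14, 95% interval -1.72 to 1.43).

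Egr1, an activator that many growth signals induce, was at 188, 168, 165, 219 and 131 FPKM in CKD mice 1 to 5 and at 196, 273, 238, 169 and 73.5 FPKM in Sham mice 1 to 5. Its group means were among the closest of the set, 174 ± 32.2 FPKM for CKD mice and 190.1 ± 76.4 for Sham mice (SD, n = 5 in both; log2 -0.02, SE 0.29, limma adjusted p = 0.989). Egr3, an EGR relative and the least abundant member, was at 3.39, 5.01, 4.69, 5.20 and 2.33 FPKM in CKD mice 1 to 5. In Sham mice 1 to 5 it was at 4.01, 11.9, 9.96, 5.09 and 0.936 FPKM. Although both genes had the same highest and lowest mouse among the controls, the Sham span was 3.72-fold for Egr1 and 12.7-fold for Egr3.

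Nr4a1, the nuclear receptor also known as Nur77, was at 62.4, 97.0, 122, 105 and 52.0 FPKM in CKD mice 1 to 5. It was at 80.2, 219, 233, 92.2 and 15.7 FPKM in Sham mice 1 to 5. Sham 2 and Sham 3 were again above all CKD mice and Sham 5 below them, with a 14.8-fold span among the Sham mice.

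Ier2 had the narrowest spread of the set. It was at 66.3, 66.2, 60.1, 84.8 and 55.5 FPKM in CKD mice 1 to 5 and at 68.9, 98.5, 84.5, 61.6 and 37.6 FPKM in Sham mice 1 to 5. Its means of 66.6 ± 11.2 FPKM for CKD mice and 70.2 ± 23.2 for Sham mice (SD, n = 5 in both) gave the most precise estimate, a log2 difference of -0.02 (SE 0.21, 95% interval -0.49 to 0.45).

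Dusp1, the phosphatase that ends MAP kinase signalling, was the most abundant member. It was at 202, 243, 239, 264 and 170.5 FPKM in CKD mice 1 to 5 and at 292, 367, 331, 204 and 96.5 FPKM in Sham mice 1 to 5. Here Sham 1 joined Sham 2 and Sham 3 above all CKD mice. The log2 difference was -0.08 (SE 0.30, 95% interval -0.74 to 0.58).

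**Figure D1:**
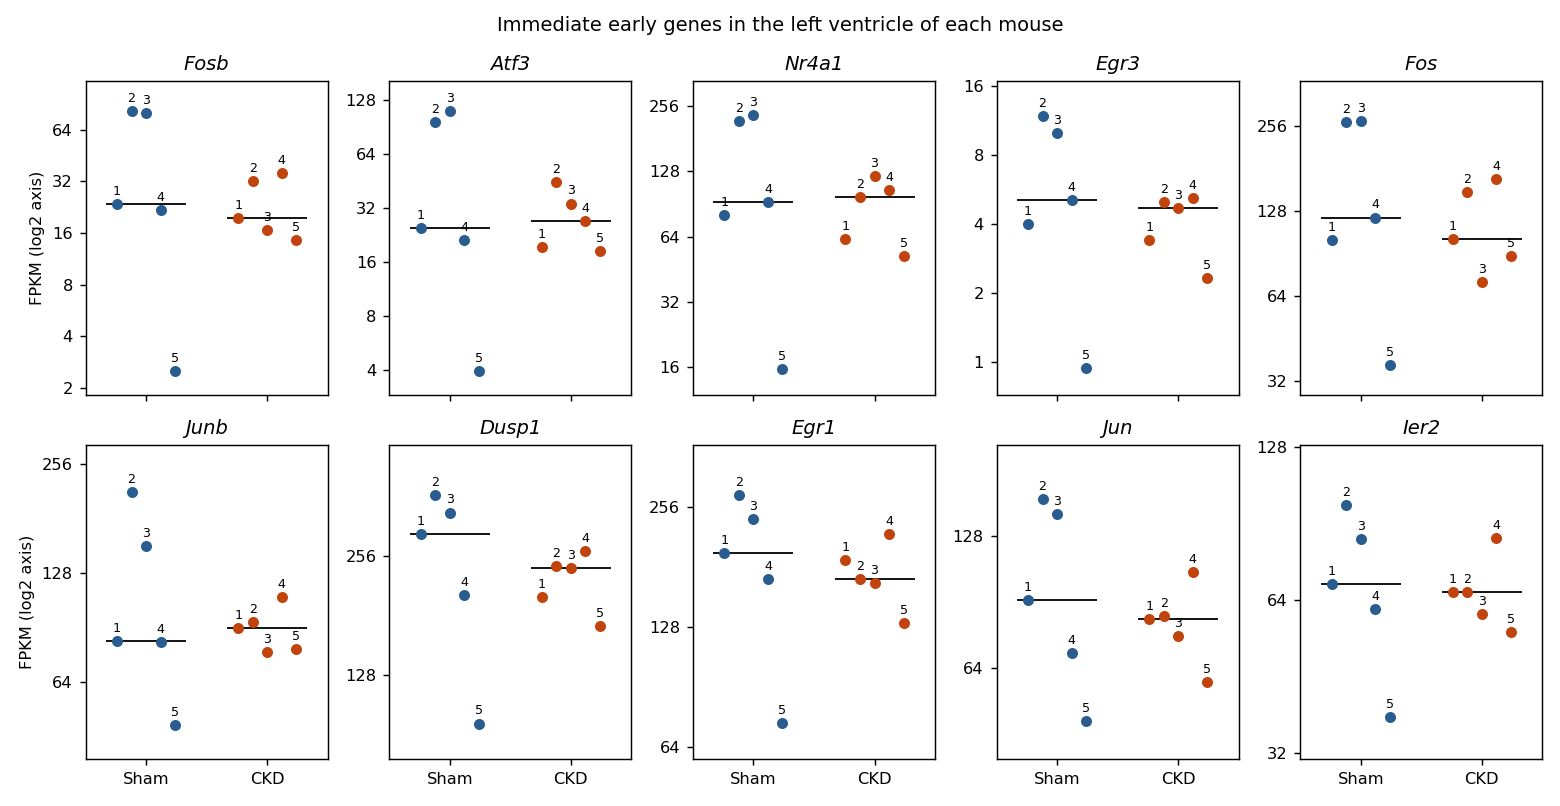
FPKM of the 10 immediate early genes (vertical axes, log2 scale, a different range in each panel) in 5 Sham mice (blue) and 5 CKD mice (orange); each point is a mouse with its number, horizontal lines are group medians, and panels run from the widest to the narrowest Sham span. Sham 5 is the lowest point in each panel, for example 2.50 FPKM for Fosb and 37.6 FPKM for Ier2.

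Averaged over the 10 mice, and per transcript length, the levels ran from Dusp1 (241 FPKM) through Egr1 (182), Fos (137), Nr4a1 (108), Junb (103), Jun (91.6), Ier2 (68.4), Atf3 (40.0) and Fosb (32.9) to Egr3 (5.25). Nr4a1 and Junb could not be placed in order, with Nr4a1 the higher in 5 of 10 mice. The steps from Egr1 to Fos, Fos to Nr4a1, Nr4a1 to Junb, Junb to Jun and Atf3 to Fosb were each smaller than the SD of either gene over the mice. Within a mouse, Egr1 exceeded Fos, Fos exceeded Nr4a1 and Junb exceeded Jun in 9 of 10 mice each, and Atf3 exceeded Fosb in 7. Among the remaining steps, Dusp1 exceeded Egr1, Jun exceeded Ier2 and Fosb exceeded Egr3 in 10 of 10 mice, and Ier2 exceeded Atf3 in 9.

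Between the groups, limma called 0 of 10 members higher and 0 lower at an adjusted p under 0.05, and 0 had an unadjusted p under 0.05. All 10 passed the filter on low values. Over all 11651 genes tested, 3.17% were called higher and 2.12% lower in CKD. Before adjustment, the limma p fell below 0.05 for 2275 of these 11651, the background for such counts here and in the lists below. The groups overlapped for 10 of 10 members, and they did not overlap for 7.28% of tested genes. Adjusted p ran from 0.754 to 0.989. The 10 log2 differences were all negative, between -0.02 and -0.28, with a median of -0.15, against -0.0035 for all tested genes. These signs are not 10 observations, since all members were measured in the same mice. The median standard error was 0.39 for the members and 0.09 over all tested genes. For Fosb, Atf3 and Nr4a1 the 95% interval extended past 1 on the log2 scale in both directions. A change of that size could not be detected or set aside with these mice. The intervals of Fos (-1.23 to 0.84) and Egr3 (-1.33 to 0.77) extended below -1, so a fall of that size was not set aside for them either.

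**Figure D2:**
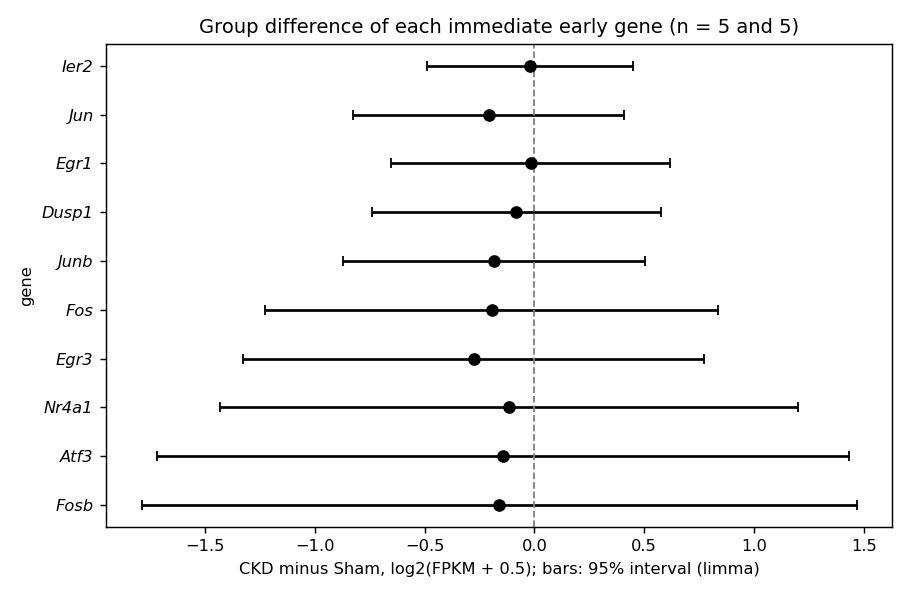
Difference between CKD and Sham means of log2(FPKM + 0.5) for each immediate early gene (points, horizontal axis) with 95% intervals from limma (bars, 5 mice in each group), ordered by standard error. Each interval includes 0, from -0.49 to 0.45 for Ier2 to -1.79 to 1.47 for Fosb.

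The sign of the difference depended on single control mice. Without Sham 2 it turned positive for 9 of 10 members, with Jun the exception at -0.02, and without Sham 3 for 7 of 10. Without Sham 5 all 10 stayed negative and grew, for example from -0.16 to -0.93 for Fosb, from -0.14 to -0.84 for Atf3 and from -0.12 to -0.74 for Nr4a1. Without CKD 5 it turned positive for 4 members, and without CKD 3 or Sham 1 for 1 each. None of these fits called a member, and the smallest adjusted p among them was 0.183, for Egr3 without Sham 5.

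Spread between mice was the main feature of these genes. The SD between mice within groups, from the fit, had a median of 0.76 (log2) over the members and of 0.14 over all 11651 tested genes. It was lowest for Ier2 (0.41), which exceeded 96.7% of tested genes, and highest for Fosb (1.44), which exceeded 99.7%. Atf3 (1.39), Nr4a1 (1.16), Egr3 (0.92) and Fos (0.91) followed Fosb. Junb (0.60), Dusp1 (0.58), Egr1 (0.56) and Jun (0.54) lay between Fos and Ier2. The ratio of the highest to the lowest of the 10 mice had a median of 5.87 for the members and of 1.42 for tested genes. Without Sham 5 the median spread of the members was 0.51, and it was between 0.70 and 0.81 without any other single mouse.

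**Figure D3:**
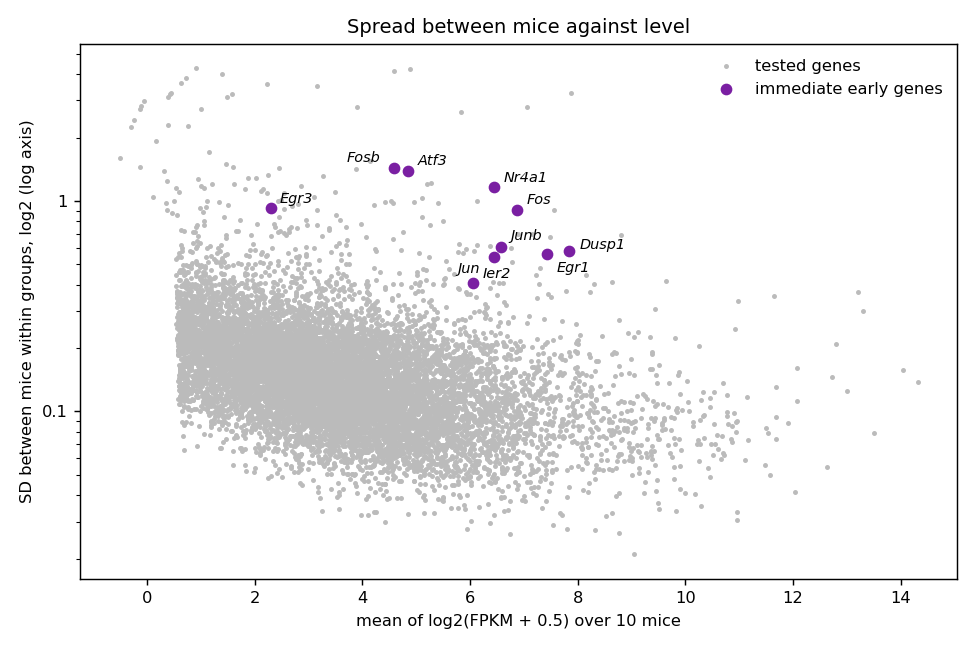
SD between mice within groups (vertical axis, log2 units on a log axis) against mean log2(FPKM + 0.5) over 10 mice for 11651 tested genes (grey) and the 10 immediate early genes (purple). The members lie between 0.41 (Ier2) and 1.44 (Fosb), above the median of 0.14 of all tested genes.

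The spread was larger in the Sham group than in the CKD group for 10 of 10 members. The median SD of the log2 values was 1.01 in Sham and 0.36 in CKD, and the Sham to CKD ratio ran from 2.31 to 4.10 with a median of 2.93. Over all tested genes, 57.3% had the larger SD in Sham, and the median ratio was 1.09. Without Sham 5 the members' median ratio was 1.59, with the SD still larger in Sham for 10 of 10. All members were measured in the same mice, so 10 of 10 is not 10 observations. No test of the difference in spread was run. The CKD values all lay within the Sham range for 10 of 10 members and for 20.5% of tested genes.

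The same mice were high or low for nearly all members. Among the Sham mice, Sham 2 was highest for 7 members and second for 3, and Sham 3 highest for 3 and second for 7. Sham 5 was lowest for 10 of 10. Of all tested genes, 32.2% had their highest Sham value in Sham 2 or Sham 3 and 22.8% their lowest in Sham 5. Deviations from the Sham mean ran from 0.56 to 1.71 (log2) in Sham 2, from 0.34 to 1.86 in Sham 3 and from -3.08 to -0.82 in Sham 5. Sham 1 (-0.32 to 0.32) and Sham 4 (-0.48 to 0.04) stayed near the mean. Among the CKD mice, CKD 4 was highest for 8 members and CKD 5 lowest for 8, with deviations of -0.68 to -0.18 in CKD 5. The exceptions were Atf3, highest in CKD 2, Nr4a1, highest in CKD 3, and Fos and Junb, lowest in CKD 3.

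The depth of these libraries lay among that of the others. Depth relative to Sham 2 was estimated indirectly, as the most common ratio of low FPKM values, gene by gene, of Sham 2 over each library. It was 1.03 for Sham 3 and 0.904 for Sham 5, within a range of 0.85 to 1.145 over the 10 libraries. Summed FPKM ranged from 570509 to 605007. CKD 1 and Sham 1, which had 14.8% and 15.3% of their summed FPKM in the 10 most abundant genes against 17.6% to 18.3% elsewhere, were not the mice that stood out for immediate early genes. Leaving both out changed the sign of 1 member, Dusp1 (from -0.08 to 0.03), and called none.

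After the group means were removed, the Pearson correlation between 2 members over the 10 mice ranged from 0.86 to 0.99 over the 45 pairs, with a median of 0.94. Spearman's rho ranged from 0.67 to 0.99 with a median of 0.86. Without Sham 2 and Sham 5, the 2 mice farthest from the median, r ranged from 0.56 to 0.96 over 8 mice with a median of 0.79. The closeness of the pairs thus rested in part on those 2 mice. These values describe mice that share a library for all genes, and no p was computed.

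The genes most like the members were ranked by the correlation of their deviations with the mean of the members' scaled deviations, over 10 mice and all other tested genes, whose median r was -0.0044. The 10 highest were Btg2 (r = 0.987), Zfp36 (0.983), Gadd45g (0.97), Nts (0.969), Actg1 (0.966), Klf2 (0.960), Apold1 (0.948), Cyr61 (0.944), Klf4 (0.944) and Rhob (0.942). Of these, 6 were on a list of other immediate early genes and Zfp36 on a list of feedback inhibitors. Spearman's rho was between 0.70 (Klf4) and 0.99 (Btg2), and without Sham 2 and Sham 5 r was between 0.77 (Rhob) and 0.97 (Btg2). They were chosen by r, so no p is given.

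Btg2, an antiproliferative early response gene, was at 143, 159, 141, 161 and 115 FPKM in CKD mice 1 to 5 and at 152, 248, 242, 132 and 47.6 FPKM in Sham mice 1 to 5. Zfp36, which encodes tristetraprolin, a protein that speeds the decay of early response mRNAs, was at 233 and 232 FPKM in Sham 2 and Sham 3 and at 48.8 in Sham 5. Apold1, an early response gene of endothelial cells, had a 16.0-fold Sham span, from 6.08 FPKM in Sham 5 to 97.1 in Sham 2. Klf2 and Klf4, Kruppel-like factors that blood flow induces in endothelium, spanned 4.13-fold and 3.68-fold in Sham mice. Actg1, cytoplasmic gamma-actin, is abundant and usually steady. It was at 90.5 FPKM in Sham 2 and 40.5 in Sham 5. Nts, the neuropeptide neurotensin, was a low transcript, at 2.29 FPKM in Sham 2 and 0.485 in Sham 5. In all 10 of these genes Sham 5 was the lowest Sham mouse, and Sham 2 or Sham 3 the highest. The ranking by r largely fixed that order in advance. The mean of the members' scaled deviations was most extreme in Sham 2 (1.353), Sham 3 (1.114) and Sham 5 (-2.145).

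**Figure D4:**
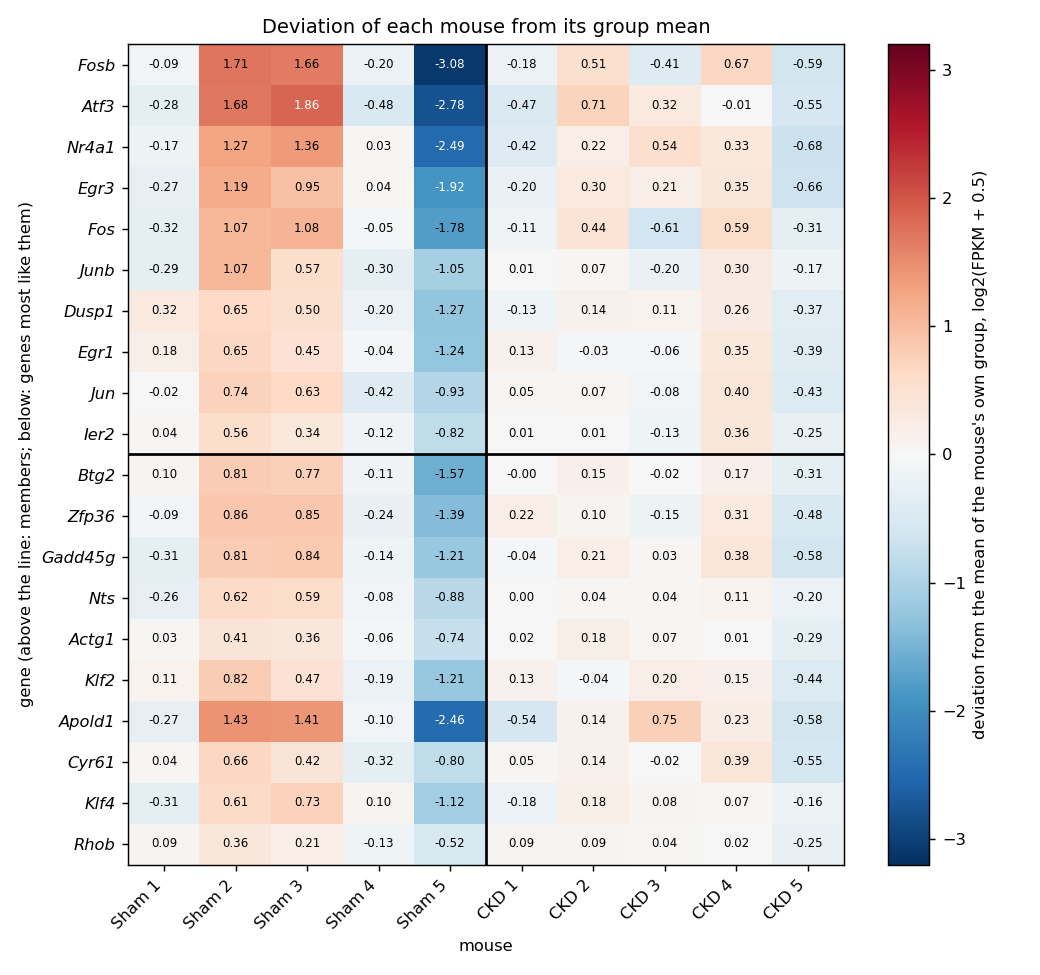
Deviation of each mouse (columns) from the mean of its own group, in log2(FPKM + 0.5) units (colour and printed value), for the 10 immediate early genes (above the horizontal line) and the 10 genes most like them (below). Sham 2 and Sham 3 are positive and Sham 5 negative in each row, down to -3.08 for Fosb in Sham 5. The genes below the line were chosen by their correlation with the members, which largely fixed this order for them.

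The list of 40 other immediate early genes had 38 tested members, of which 0 were called in either direction by limma and 1 had an unadjusted p under 0.05 (median log2 change -0.06). Their median SD between mice was 0.47, and 21 of 38 had r above 0.8 with the members' profile. Sham 5 was the lowest Sham mouse for 26 of 38, and Sham 2 or Sham 3 the highest for 34. The widest spread belonged to Nr4a3 and Nr4a2, the closest relatives of Nr4a1. Nr4a3 was at 0.707, 13.1, 13.7, 1.51 and 0.337 FPKM in Sham mice 1 to 5 and at 0.625 to 4.09 FPKM in CKD mice. Nr4a2 was at 0.903, 6.43, 5.80, 1.31 and 0.267 FPKM in Sham mice 1 to 5 and at 0.932 to 1.77 FPKM in CKD mice.

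Relatives of the members in the AP-1 and ATF families followed them less closely, with a median r of 0.27 over 14 tested genes of 17. Of these, limma called 0 in either direction, and 0 had an unadjusted p under 0.05. Fosl2, a late FOS relative, was at 7.34, 25.7, 32.8, 10.4 and 4.55 FPKM in Sham mice 1 to 5, again with Sham 2 and Sham 3 highest and Sham 5 lowest. Batf2, an interferon-inducible relative, stood out in another mouse, with 13.4 FPKM in CKD 1 and 0.320 to 1.22 FPKM in the other CKD mice.

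As a list, kinases and factors that switch the members on, without Srf and Creb1, which were on the lists above, varied little in mRNA level. Over 33 tested genes of 35 the median SD between mice was 0.12 and the median r with the members 0.08. Of them, 0 were called higher and 2 lower. Mapk14, the p38 alpha MAP kinase, fell from 28.5 ± 1.88 to 23.2 ± 1.49 FPKM (SD, n = 5 each; log2 -0.29, SE 0.06, limma adjusted p = 0.0212). This call was lost without CKD 2, CKD 3, CKD 5 or Sham 3 (highest adjusted p = 0.0618). Mef2a, a muscle transcription factor that p38 activates, fell from 44.6 ± 4.47 to 36.9 ± 0.621 FPKM (log2 -0.26, SE 0.07, limma adjusted p = 0.0419), a call that held without Sham 5 and was lost without any other single mouse (highest adjusted p = 0.101). It was also lost with no filter on the mean (adjusted p = 0.0518), with libraries scaled to the same sum (0.0542), with no variance trend (0.0598) and with CKD 1 and Sham 1 both left out (0.0840).

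Of 23 tested feedback inhibitors of MAP kinase signalling and of early mRNAs (24 listed), 2 were called higher and 2 lower (median log2 change -0.12, median r 0.52). Dusp6, the phosphatase specific for ERK, rose from 17.4 ± 2.92 to 23.8 ± 2.16 FPKM (SD, n = 5 each; log2 0.45, SE 0.11, limma adjusted p = 0.0378). Its 5 CKD values, 21.3 to 26.9 FPKM, lay above its 5 Sham values, 13.1 to 20.7 FPKM. Dusp3, a small dual-specificity phosphatase, rose from 39.3 ± 3.03 to 47.3 ± 3.02 FPKM (log2 0.27, adjusted p = 0.0357). Dusp10, a phosphatase for p38 and JNK, fell from 4.71 ± 0.847 to 3.14 ± 0.485 FPKM (log2 -0.51, adjusted p = 0.0385). Tsc22d1, a leucine zipper protein, fell from 235 ± 16.4 to 197 ± 4.48 FPKM (log2 -0.25, adjusted p = 0.0169). Removing 1 mouse left the call of Dusp6 standing only for CKD 3, Sham 1 and Sham 5, that of Dusp3 only for CKD 4 and Sham 1, and that of Dusp10 only for CKD 1, CKD 4 and Sham 4. Removing any of the others ended each call (highest adjusted p = 0.0905, 0.0949 and 0.0942). The call of Tsc22d1 was lost without Sham 3 (adjusted p = 0.0502). Processing choices ended some of these calls too: with no filter on the mean, Dusp6 (adjusted p = 0.0571) and Dusp10 (0.0642) were not called. Dusp3 was not called with libraries scaled to the same sum (0.0527) or with no variance trend (0.0525), nor Dusp10 with CKD 1 and Sham 1 both left out (0.0674). Dusp1 itself, the member of this family, was not called.

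**Figure D5:**
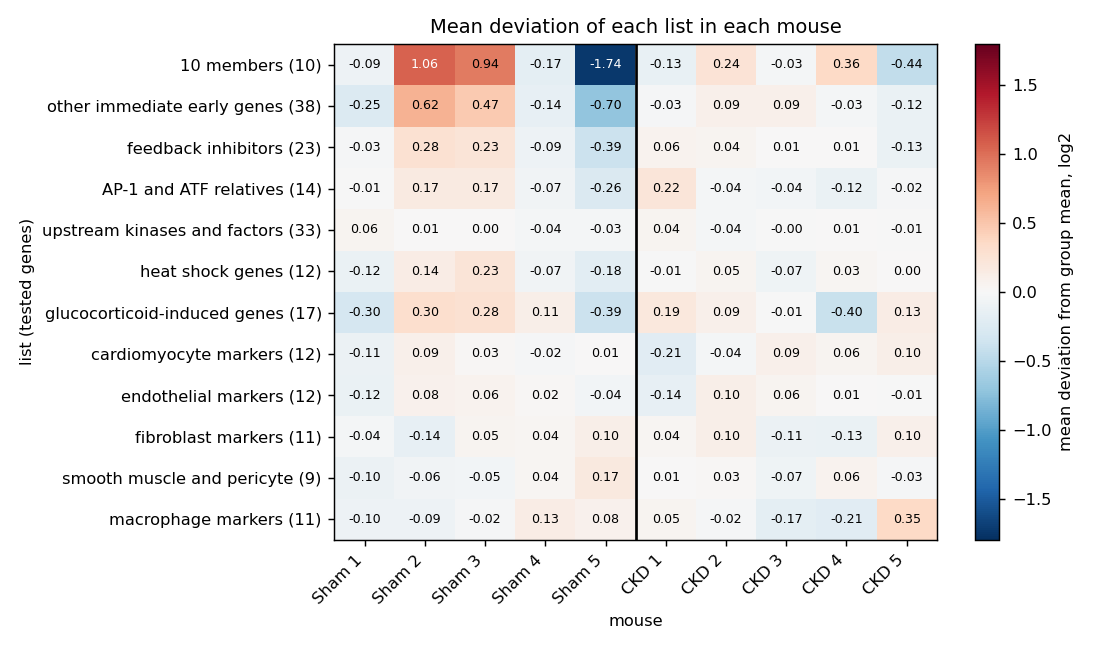
Mean deviation from the group mean (log2, colour and printed value) of each gene list (rows, with the number of tested genes) in each mouse (columns). The members are at 1.06 in Sham 2, 0.94 in Sham 3 and -1.74 in Sham 5. The cardiomyocyte and endothelial lists stay within -0.21 and 0.10, while the macrophage list reaches 0.35 in CKD 5. Neutrophil, lymphocyte and red cell markers are not drawn.

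Heat shock genes, which encode chaperones, followed the members in part. Their mean deviation over 12 tested genes of 14 was 0.14 in Sham 2, 0.23 in Sham 3 and -0.18 in Sham 5. Sham 2 or Sham 3 was the highest Sham mouse for 12 of 12, but Sham 5 was the lowest for 5, and 2 of 12 had r above 0.8 with the members' profile (median 0.37). Their summed FPKM in Sham 5 (2495) was above the lowest Sham sum (2403). In this list 0 genes were called higher and 1 lower, Hspd1, the mitochondrial chaperonin HSP60 (from 219 ± 5.16 to 190.6 ± 4.21 FPKM, SD, n = 5 each; log2 -0.20, SE 0.04, limma adjusted p = 0.0104).

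Genes that glucocorticoids induce were examined because Dusp1 is also a known glucocorticoid target. The list also holds Nr3c1, the glucocorticoid receptor. It shares Per1 and Sgk1 with the list of other immediate early genes and Errfi1 with the feedback list, so these genes count in both. Of 17 tested, 4 were called higher and 0 lower. Mt2, a metallothionein, rose 3.02-fold on the log2(FPKM + 0.5) scale (log2 1.60, limma adjusted p = 0.00207), and Fkbp5, which encodes a co-chaperone of steroid receptors, rose 2.64-fold (log2 1.40, adjusted p = 0.00895). Lcn2, the iron-carrier binding protein lipocalin 2, rose by 0.82 and Mt1 by 0.60 on the log2 scale (adjusted p = 0.0234 and 0.0356). The call of Lcn2 was lost without CKD 3, CKD 5, Sham 2 or Sham 3, and that of Mt1 by removing any 1 mouse other than CKD 2, CKD 4 and Sham 2 (highest adjusted p on removing 1 mouse = 0.0628 and 0.0850). With CKD 1 and Sham 1 both left out, neither was called (adjusted p = 0.0679 for Lcn2 and 0.107 for Mt1), and with no filter on the mean Mt1 was not called (adjusted p = 0.0587). As a list, the 17 genes lay on the members' side of the mean in the 3 Sham mice that stood out. Mean deviations were 0.30 in Sham 2, 0.28 in Sham 3 and -0.39 in Sham 5. In CKD mice 1 to 5 the members' mean deviations were -0.13, 0.24, -0.03, 0.36 and -0.44. Those of the 17 genes were 0.19, 0.09, -0.01, -0.40 and 0.13, on the opposite side in CKD 1, CKD 4 and CKD 5. Their summed FPKM was lowest of the Sham mice in Sham 5 (806, against 1373 in Sham 2). Sham 2 or Sham 3 was the highest Sham mouse for 12 of 17 and Sham 5 the lowest for 7, and 2 of 17 had r above 0.8 with the members' profile (median 0.35). Fkbp5 had another order, lowest in Sham 3 at 3.71 FPKM and highest in Sham 5 at 9.69 FPKM.

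In a bulk sample, fewer cells of a type and less RNA per cell cannot be told apart, so marker genes were set beside the members. The 12 cardiomyocyte markers summed to 78634, 79120 and 77449 FPKM in Sham 2, Sham 3 and Sham 5, within a Sham range of 67084 to 79120 and a CKD range of 64428 to 79514, so the muscle markers of the labelled tissue were abundant in every library. The 12 endothelial markers summed to 1815, 1615 and 1607 FPKM in those 3 mice (Sham 1532 to 1815, CKD 1363 to 1974). The 11 fibroblast markers summed to 1282, 1352 and 1354 FPKM, the 9 smooth muscle and pericyte markers to 349, 339 and 356, and the 12 macrophage markers found to 277, 291 and 330.5. The members' own FPKM summed to 1782.5, 1649 and 364 in the same 3 mice. Fibroblast markers (6 of 11 called higher, 0 lower; CKD sums 1377 to 1589, Sham 1234 to 1354) and macrophage markers (6 of 11 tested called higher, 0 lower; CKD 385 to 558, Sham 273 to 330.5) were higher in CKD, a difference the members did not show. Of the other lists, 0 of 12 endothelial, 0 of 9 smooth muscle and pericyte and 1 of 12 cardiomyocyte markers (Csrp3, higher) were called. Neutrophil markers (7 found, 4 tested) summed to 8.21 to 31.6 FPKM in Sham and 15.5 to 61.7 in CKD, lymphocyte markers (10 found, 1 tested) to 2.54 to 7.28 and 2.26 to 4.26, and red cell markers (4 found, 3 tested) to 86.7 to 155 and 86.6 to 207, with 0 of the tested genes called by limma in each and 1, 1 and 0 at an unadjusted p under 0.05. In Sham 2, Sham 3 and Sham 5, neutrophil markers summed to 16.8, 20.2 and 10.9 FPKM and lymphocyte markers to 7.28, 2.54 and 4.24. Red cell markers summed to 117, 155 and 86.7 FPKM there, with Sham 3 the highest Sham mouse and Sham 5 the lowest. In CKD 5, low for most members, the tested neutrophil, red cell and macrophage markers had mean deviations of 1.11, 0.79 and 0.35. Those of cardiomyocyte, endothelial, fibroblast, smooth muscle and pericyte, and lymphocyte markers there were 0.103, -0.014, 0.095, -0.026 and 0.139. Median r with the members' profile was -0.471 for fibroblast, -0.375 for macrophage and -0.235 for smooth muscle and pericyte markers. It was 0.065 for cardiomyocyte and 0.107 for endothelial markers. No listed marker that was found was at 0 in all libraries. Whether any cell type contributed to the members' spread was not tested.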

How the data were processed

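The authors deposited a single table of FPKM values for 23303 gene entries in 10 libraries; per the labels, these are left ventricles of 5 CKD and 5 Sham mice. Per the labels' protocols, RNA came from tissue kept in RNALater and libraries were made with the TruSeq mRNA protocol and sequenced as single reads. The submitters' processing notes list STAR 2.4.0f1, Cufflinks 2.1.1, Cuffdiff 2.1.1, mm10 and hg19, with no role for each; use of strand and the sharing of reads between genes are not given in the sources used here. Read numbers behind a value are unknown, so no count model or counting interval was used.

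Values were analysed as log2(FPKM + 0.5), unscaled, which understates changes of genes near the pseudocount. The 11651 genes whose mean FPKM reached 1 were fitted with limma 3.58.1 in R 4.3.3. The test was moderated and two-sided, with a variance trend on the mean. Adjustment was by Benjamini-Hochberg over all tested genes, with a threshold of 0.05. The code was checked on simulated data in which genes varied independently, with the same spread in both groups. The members here varied together and more in Sham, so that check does not cover them. Other tables were made with Python 3.11.15. The pseudocount, filter, scaling, variance model and library weights were varied, and mice were left out. The members, lists and tests were chosen with earlier results of these data known. Named genes are the members, the 10 genes most like them, and from each pathway list up to 4 called genes or, with none called, the 2 with the largest spread; clone names and joined entries were left out of the ranking. Jund, Srf, Errfi1, Dnajb1, Hspa1a, Sgk1 and Csrp3 were named after their values were seen.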

Additional observations from a re-analysis of the deposited data

Results flagged for a closer look

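Of 62 groups of 5 values examined for a mouse far from the others (the members, the genes most like them and the called pathway genes, on the log2 scale), 1 stood apart, and chance alone flags about 1 in 20. Rhob, a small GTPase that early signals induce, was at 106 FPKM in CKD 5 and at 127 to 134 FPKM in the other 4 CKD mice, a gap of 0.795 of the group's range against a critical value of 0.71. CKD 5 was the lowest CKD mouse for 8 of the 10 immediate early genes. Rhob was examined because its deviations followed those of the members, so a low value in the same mouse was favoured in advance. No member passed this criterion in either group.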

How the results depend on the processing

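No member was called under any of 21 alternatives (210 values, adjusted p from 0.183 to 0.999), and 187 of these values kept their sign. Leaving out each mouse in turn moved the log2 change of Fos from -0.64 to 0.076, Fosb from -0.93 to 0.27, Junb from -0.45 to 0.083, Egr1 from -0.33 to 0.15, Egr3 from -0.76 to 0.021, Atf3 from -0.84 to 0.32, Nr4a1 from -0.74 to 0.22, Ier2 from -0.23 to 0.12 and Dusp1 from -0.40 to 0.080; Jun stayed between -0.44 and -0.02. Without CKD 1 and Sham 1 the value of Dusp1 was 0.030. The median SD of the members ranged from 0.51 to 0.81 on leaving out 1 mouse, and the SD was larger in Sham for 10 of 10 members under each alternative run for it. Of all genes, 369 were called higher and 247 lower, 202 to 385 and 131 to 290 on leaving out 1 mouse, and library weights gave 400 lower. In the 6 pathway lists together, 6 genes were called higher and 5 lower; leaving out 1 mouse gave 2 to 5 and 1 to 6, no filter on the mean gave 3 lower, and library weights gave 8 lower. These list counts, the likeness ranking and the count of larger Sham SD were recomputed under alternatives chosen after seeing the data. No paired analysis was possible because the labels give no replicate numbers shared between the groups. The cause of the shifts under library weights and without the filter was not tested. The read numbers behind the values are unknown, which bears most on Egr3, the lowest member.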

Other observations

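Other genes of early signalling, named after their values were seen, were high in Sham 2 and Sham 3 as well. Errfi1, a feedback inhibitor of the EGF receptor, was at 21.0, 84.0, 92.8, 40.3 and 10.0 FPKM in Sham mice 1 to 5 and at 19.3 to 36.0 FPKM in CKD mice. Jund, the JUN relative that most tissues express steadily, was at 109.5 FPKM in Sham 2 and 86.8 in Sham 3, against 50.3 to 54.9 FPKM in the other Sham mice and 51.8 to 62.2 in CKD mice. Sgk1, a kinase that glucocorticoids and other stimuli induce, was at 24.2 FPKM in Sham 5 and at 62.7 to 106 FPKM in the other Sham mice.

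Dnajb1, an HSP70 co-chaperone, was at 11.7, 16.1, 25.6, 12.1 and 7.87 FPKM in Sham mice 1 to 5, and Hspa1a, an inducible HSP70, at 3.19, 3.93 and 0.908 FPKM in Sham 2, Sham 3 and Sham 5. Hspa1a has a near-identical neighbour, Hspa1b, so its values are uncertain. Srf, the factor upstream of many early genes, was at 39.8 and 40.6 FPKM in Sham 2 and Sham 3 and at 31.9 FPKM in Sham 5, a narrower range than that of any member.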
